A study of Mus musculus with 3 samples.

Results

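Osteogenic medium with 0.6% dimethyl sulfoxide (DMSO) was compared with normal medium in MC3T3-E1 cells, a line of mouse preosteoblasts from calvaria, labelled as C57BL/6. The comparison took 2 of the 3 arrays of the series, 1 a condition, and covered the 18193 genes with a probe set of a single gene symbol. All cells grew for 3 days at 37 °C in MEM α with 10% fetal bovine serum. The cells in normal medium received nothing more. The cells in osteogenic medium also received beta-glycerophosphate at 10 mM and 150 µM ascorbic acid 2-phosphate, which lasts longer in culture than vitamin C itself. Of the cultures in osteogenic medium, 1 had 0.6% DMSO, a common solvent, and 1 had none. The array without DMSO lies between the other 2. Its difference from normal medium is called the first step. The difference of the array with DMSO from the array without it is called the second step. The total is the sum of these steps by construction. It joins the effects of the osteogenic supplements and of DMSO, which cannot be told apart in it, since no cells received DMSO in normal medium. Each step and the total also hold any difference between single cultures and single arrays. Per the labels, alizarin red S, a calcium stain, was stronger with DMSO.

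MC3T3-E1 cells are an established model of how a bone-forming cell matures. Ascorbate lets such cells hydroxylate and secrete collagen, and beta-glycerophosphate gives phosphate once alkaline phosphatase cleaves it. A maturing osteoblast then turns on transcription factors such as osterix, enzymes that free phosphate for mineral, and acidic matrix proteins that bind calcium. The label of the cells was checked against markers. Of 8 markers listed for the osteoblast line, Runx2 had no probe set of a single gene symbol and was not measured. The 7 others were above the floor on every array, among them Col1a1, Col1a2 and Sparc. Adipoq and Fabp4 of adipocytes, Acan and Comp of cartilage and Ptprc and Adgre1 of macrophages were below the floor on every array. So were Pecam1 and Cdh5 of endothelium and Myod1 and Myog of muscle. Not all markers of other cells were low. Cnmd, Sox9 and Col2a1 of cartilage, Ctsk of osteoclasts and Cebpa of adipocytes stood at 8.68, 7.52, 7.16, 9.35 and 6.15 in normal medium. Of the 6 smooth muscle markers 5 exceeded the floor, with Acta2 at 12.48 and Tagln at 11.44, and 2 of 6 skeletal muscle markers, with Acta1 at 5.17. In RNA of whole cultures, fewer cells of a stage and less RNA per cell cannot be told apart.

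Values are log2 levels as deposited (the base was read from their range), and a difference of 1 is a 2-fold change. Levels under the floor of 3.54, the median of all probe sets, were raised to it, so that a difference reaching the floor is a bound, written "at least". With 1 array a condition there is no replicate, no SD and no test, and precision is limited by having so few arrays. The repeat measurement within an array is a second probe set of the same gene. Over 5188 such pairs the total difference scattered with an SD of 0.157 per probe set, which leaves out the spread between cultures. Between the arrays, 18 hybridisation spikes differed by a median of 0.06 (range 0.01 to 0.18), and for Actb the probe sets at the 3' and 5' ends, whose gap reflects RNA quality, differed by 0.27 in normal medium and by 0.18 with DMSO. Its part in the results was not tested.

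In all, 69 genes rose at least 2-fold from normal medium to osteogenic medium with DMSO (0.602% of the 11462 genes that exceeded the floor on 1 or more arrays). A further 153 fell (1.33%), so that 1.94% changed in either direction. Of these, 8 rises and 10 falls were bounds. Among the furthest rises were Ifitm5, Smpd3, Ibsp and Alpl of the mineralization list, beside genes of other kinds such as Car3, Apcdd1 and Lepr. Among the furthest falls were Mmp13, Crabp1, F13a1 and Aldh1a3. Over all genes above the floor the median difference was 0.00, with 40.6% higher, 35.7% lower and the rest exactly equal. Falls outnumbered rises under every floor, scaling, probe set and threshold tried.

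Car3, a carbonic anhydrase of muscle and fat, had the largest rise. It was below the floor in normal medium, at 7.34 in osteogenic medium and at 9.08 with DMSO, at least 46.5-fold higher in total, though its other probe set differed by 2.06 on the log2 scale. Ifitm5, a membrane protein of osteoblasts that is mutated in a brittle bone disease, went from 4.24 to 6.28 and 7.37, an 8.73-fold rise. Smpd3, the sphingomyelinase needed for mineralization of bone and cartilage, stood at 5.01, 6.74 and 7.76 and rose 6.76-fold. For these 3 genes each step was 2-fold by itself. Ibsp, which encodes bone sialoprotein, stood at 7.998, 10.17 and 10.56 and was 5.89-fold higher. Alpl, the alkaline phosphatase of bone, stood at 6.61, 8.31 and 9.02 and rose 5.33-fold. Both gained most of their rise in the first step.

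Tnfrsf11b, the decoy receptor osteoprotegerin that restrains osteoclasts, rose 7.33-fold, from 5.82 to 8.62 and 8.70. Its second step was thus close to none. Apcdd1, a membrane inhibitor of Wnt signals, stood at 4.06, 6.23 and 7.07 and rose 8.02-fold, and its other 4 probe sets ranged from 0.10 to 3.06. The secreted Wnt inhibitor Notum rose 4.80-fold, from 5.19 to 6.85 and 7.46. The channel gene Panx3, active in bone and cartilage cells, rose 5.39-fold over 6.59, 8.40 and 9.02. Ramp1, whose product carries receptors of the calcitonin family to the membrane, stood at 7.67, 8.90 and 9.89 and rose 4.67-fold, though its other 2 probe sets ranged from 0.12 to 1.52.

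Further rises were those of Lepr, the leptin receptor (4.61-fold, other probe sets 0.27 to 1.85 on the log2 scale), Sgms2, a sphingomyelin synthase (3.75-fold), and Tubb3, a neuronal tubulin (3.71-fold). Slc16a4, a transporter of the monocarboxylate family, was 3.69-fold higher in its main probe set and at -0.20 in another, so its direction rests on the choice of probe set. Slc8a3, a sodium-calcium exchanger, rose 3.53-fold from 3.66 to 4.37 and 5.48, with the larger part in the second step. Among genes below the floor in normal medium, Bmper, which binds bone morphogenetic proteins (BMPs), was at least 4.46-fold higher, and Inhbb, a subunit of activin, at least 3.34-fold higher with 0.37 on the log2 scale in another probe set. Galnt3, which adds sugars to the phosphate hormone FGF23, was at least 2.69-fold higher.

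**Figure D1:**
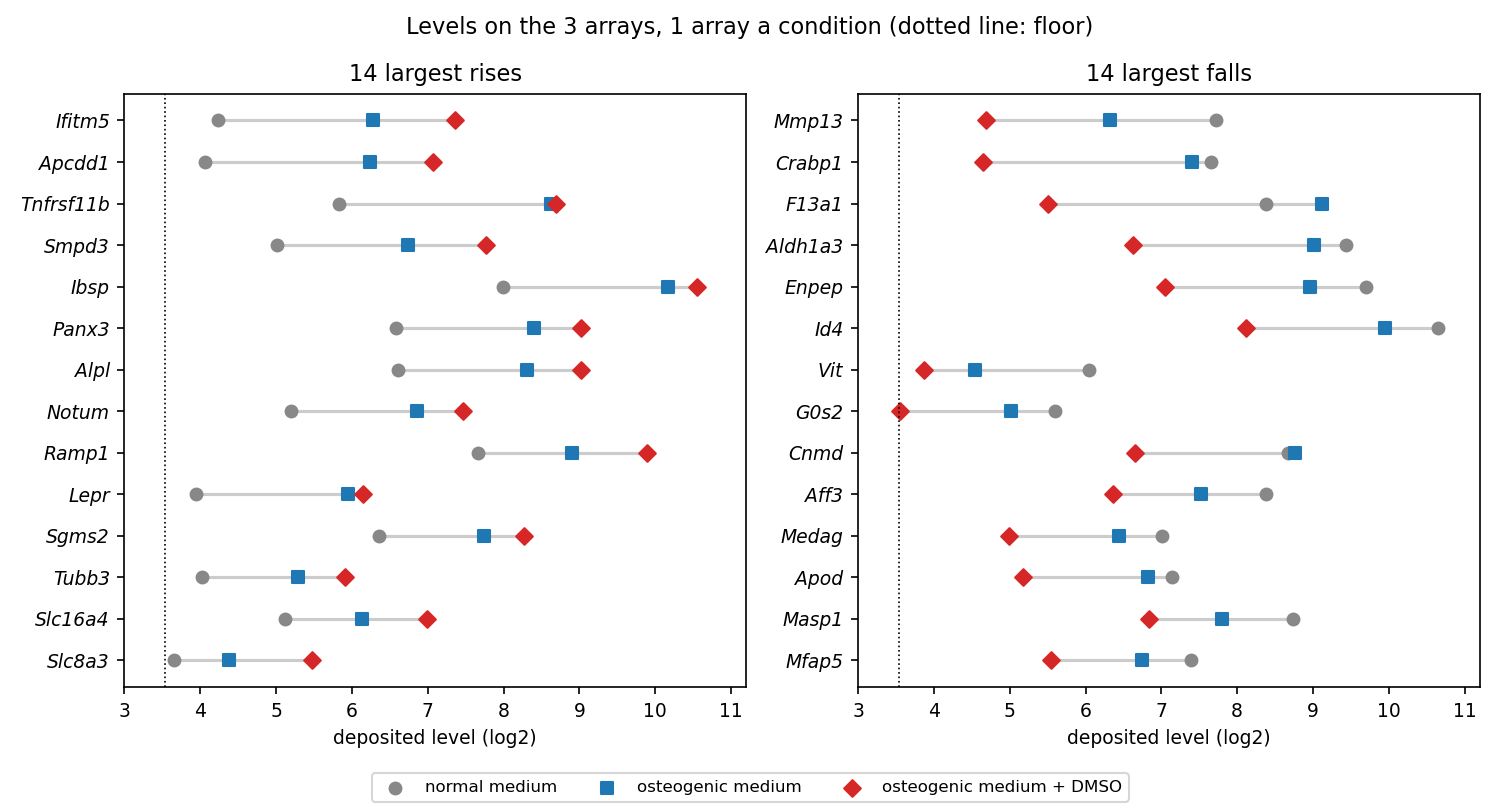
Deposited log2 levels on the 3 arrays for the 14 genes with the largest rise and the 14 with the largest fall from normal medium to osteogenic medium with DMSO, among genes that exceeded the floor in both of these media. Grey circles are normal medium, blue squares osteogenic medium and red diamonds osteogenic medium with DMSO. The blue squares lie between the other marks for 14 of the rises, while F13a1 and Cnmd among the falls were higher in osteogenic than in normal medium.

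Mmp13, a collagenase of osteoblasts and hypertrophic cartilage, had the largest fall. It stood at 7.72 in normal medium, 6.32 in osteogenic medium and 4.69 with DMSO, an 8.16-fold fall with 2-fold steps on both sides. Crabp1, which binds retinoic acid in the cytosol, stood at 7.65, 7.40 and 4.65 and fell 7.99-fold, nearly all in the second step. The gene of the retinoic acid-producing enzyme Aldh1a3 fell 6.95-fold from 9.43 to 9.01 and 6.63. Both genes belong to retinoic acid handling, and the other 9 measured genes of that list were under 2-fold, with Crabp2 at -0.74 and Cyp26b1, which breaks retinoic acid down, at -0.02.

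F13a1, the factor XIII transglutaminase subunit that crosslinks fibrin and matrix, stood at 8.38, 9.11 and 5.51 and fell 7.34-fold. Tgm2, a second transglutaminase, fell 3.58-fold from 8.55 to 8.25 and 6.71. Enpep, an aminopeptidase that cuts angiotensin, fell 6.24-fold and Id4, an inhibitor of basic helix-loop-helix factors, 5.80-fold over 10.65, 9.95 and 8.12. Chondromodulin, encoded by Cnmd, stood at 8.68, 8.77 and 6.65. The matrix protein gene Vit stood at 6.05, 4.54 and 3.87, and G0s2, an inhibitor of fat breakdown, at 5.59, 5.01 and 3.55, which is barely above the floor.

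Other large falls were Aff3 (4.06-fold, with -0.89 on the log2 scale in another probe set), Medag (4.04-fold), the lipocalin Apod (3.88-fold), Masp1 (3.74-fold) and the microfibril protein Mfap5 (3.60-fold). Of the genes that ended under the floor, the tight junction protein Cldn1 was at least 5.65-fold lower, the anion exchanger Slc26a7 at least 5.09-fold and Akr1c14, a steroid-reducing enzyme, at least 3.51-fold. Adhfe1, an alcohol dehydrogenase family member, was at least 3.30-fold lower, with -0.42 on the log2 scale in its other probe set. Ntrk3, a neurotrophin receptor, was at least 5.47-fold lower, but its other probe set stood at -0.33.

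Of the 222 genes changed 2-fold in total, 121 reached it only by 2 smaller steps in the same direction: 32 of the rises (46.4%; 0.279% of the genes above the floor) and 89 of the falls (58.2%; 0.776%), together 1.06%. By definition, with the floor applied, none of these 121 passes 2-fold in osteogenic against normal medium, or with DMSO against its absence. Without the floor, 32 of the 32 rises and 88 of the 89 falls stayed in the class. The first step alone took 54 genes up 2-fold (0.471%) and 21 down (0.183%), and the second step 6 up (0.0523%) and 63 down (0.55%). The remaining genes reached 2-fold with a 2-fold first step (31 rises and 16 falls), a 2-fold second step (3 rises and 45 falls), 2-fold steps of both kinds in the same direction (Car3, Ifitm5, Smpd3 and Mmp13) or 2-fold steps that opposed each other (Dmp1 and Sostdc1). Because both steps share the osteogenic array with opposite signs, noise on that array moves a gene between these classes without moving its total.

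**Figure D2:**
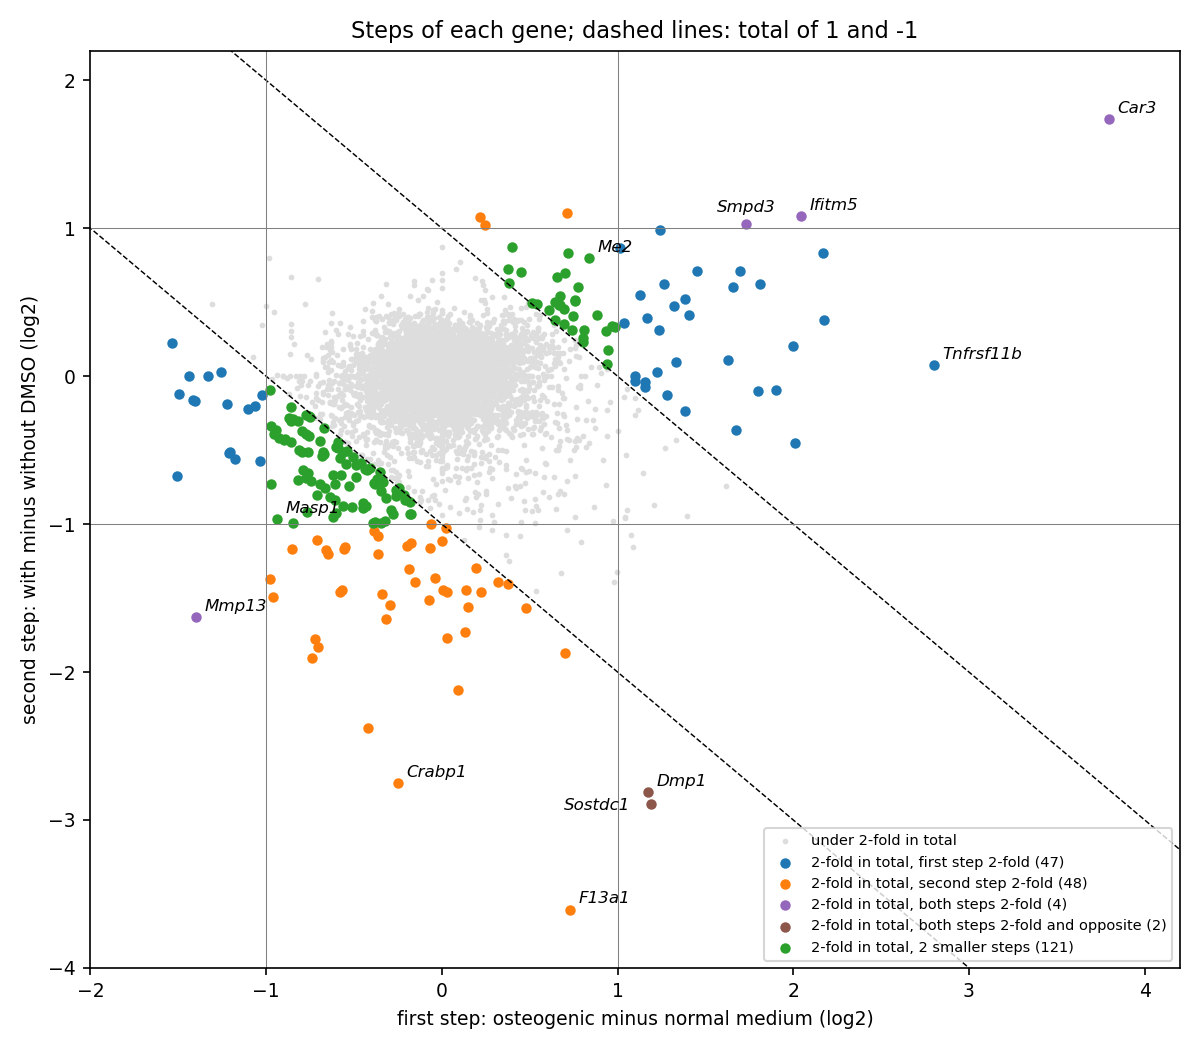
The first step (osteogenic minus normal medium, log2) on the horizontal axis against the second step (with minus without DMSO, log2) on the vertical axis, 1 point a gene above the floor on at least 1 array. Dashed lines mark totals of 1 and -1. The 121 green points, genes with 2 smaller steps, fill the triangles between the dashed lines and the grey lines that mark a 2-fold step, and more of them lie at the lower left (89) than at the upper right (32).

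In the rises by 2 smaller steps each step was under 1 by the definition of the class. The median first step was 0.71 and the median second step 0.48, for a median total of 1.15. The first step was the larger in 26 of the 32 genes. Me2, a malic enzyme of mitochondria, had the largest total. It stood at 5.78 in normal medium, 6.62 in osteogenic medium and 7.42 with DMSO, with steps of 0.84 and 0.80 and a 3.12-fold rise, and its other 2 probe sets gave 1.09 and 1.14. Rras2, a small GTPase of the Ras family, stood at 7.26, 7.98 and 8.81 and rose 2.93-fold, with 1.04 in its other probe set. Smoc2, a secreted calcium-binding protein related to Sparc, rose 2.64-fold over 4.43, 5.13 and 5.83.

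Bone transcription factors and a bone proteoglycan were in this class. Sp7, which encodes osterix, the factor that commits precursors to the osteoblast line, stood at 6.42, 7.30 and 7.72. Its steps of 0.88 and 0.41 summed to a 2.45-fold rise. Mef2c, a MADS box factor of muscle, cartilage and bone, stood at 3.84, 4.24 and 5.11 and rose 2.42-fold, with the larger step under DMSO and 0.86 and 0.94 in its other probe sets. Omd, which encodes osteomodulin, a small leucine-rich proteoglycan of bone, rose 2.47-fold over 8.85, 9.81 and 10.15. Tmem119, a membrane protein of osteoblasts and microglia, rose 2.36-fold from 8.46 to 9.40 and 9.70. Klf2, a Krüppel-like factor, had nearly equal steps of 0.66 and 0.67, and its level went from 6.95 to 7.60 and 8.27.

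Further members have varied roles. Lrp4, a co-receptor that presents the Wnt inhibitor sclerostin, stood at 5.79, 6.53 and 6.94 and rose 2.22-fold. Rnf43, a ubiquitin ligase that removes Wnt receptors from the cell surface, was below the floor in normal medium and at least 2.32-fold higher with DMSO. Cdk5r1, the activator of the kinase Cdk5, rose 2.40-fold, and its other probe sets ranged from 0.19 to 1.05. The corepressor Rcor2, the scaffold Sh3rf1 and the galectin Lgals2 each rose 2.22-fold, though other probe sets ranged from 0.08 to 1.06 for Sh3rf1 and gave 0.78 for Lgals2. Kbtbd11 (2.59-fold), Mob3b (2.50-fold), Fam102a (2.42-fold), the glutaminyl cyclase Qpct (2.22-fold) and the histone co-chaperone Dnajc9 (2.22-fold) complete the larger members, with Mms22l, a replication fork repair factor (2.17-fold), whose other probe set stood at 0.20. Just inside the threshold were Ell2 (1.01 on the log2 scale), Farp2 (1.02), the citrate transporter Slc13a5 (1.02, with 0.12 in its other probe set) and Polr3g (1.03), and just outside it Aurka (0.997), Pkdcc (0.989), Cenpi (0.982) and Ccne2 (0.982).

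Falls by 2 smaller steps were more even between the steps. The median first step was -0.60, the median second step -0.67 and the median total -1.17. The second step was the larger in 49 of 89 genes and the first in 40. Masp1, a serine protease of the lectin pathway of complement, stood at 8.74, 7.80 and 6.84. Its steps of -0.94 and -0.97 made a 3.74-fold fall, and its other probe sets gave -2.08 and -1.44. Fbln2, which encodes the matrix protein fibulin 2, stood at 9.77, 8.92 and 7.93 and fell 3.57-fold, with steps of -0.85 and -0.99. Cth, which makes cysteine from cystathionine, stood at 7.25, 6.27 and 5.54 and fell 3.25-fold.

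Growth factors of the insulin-like (IGF) and fibroblast (FGF) families were among them. Igf1 stood at 9.95, 9.18 and 8.53 and fell 2.67-fold, with -1.24 to -1.21 in its other 3 probe sets. Fgf7, a growth factor for epithelial cells made by mesenchyme, stood at 9.90, 9.20 and 8.48 and fell 2.68-fold, with -1.31 in another probe set. Igfbp5, an IGF binding protein stored in bone matrix, stood at 8.75, 7.98 and 7.29, a 2.75-fold fall that its other probe set (-0.21) did not share. Igfbp6, another binding protein, fell 2.07-fold from 8.43 to 7.89 and 7.38.

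Other members have varied roles. Cav1, which encodes caveolin 1, the coat protein of the membrane pits called caveolae, stood at 10.44, 9.84 and 8.91 and fell 2.88-fold. Cavin2, which shapes caveolae, fell 2.72-fold over 7.46, 6.85 and 6.02, and its other probe sets gave -1.65 and -1.53. Thy1, a surface protein of mesenchymal cells, stood at 6.92, 6.54 and 5.55 and fell 2.58-fold. The intermediate filament gene Synm fell 2.71-fold with -0.62 in its other probe set, Mustn1, a gene of muscle and bone repair, 2.74-fold, and Ppp1r14c, an inhibitor of protein phosphatase 1, 2.74-fold. Gfra2, a co-receptor for neurturin, stood at 8.997, 8.29 and 7.49 and fell 2.85-fold, while its other 4 probe sets ranged from -1.47 to -0.34.

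Some of the larger falls of this class rested on the chosen probe set. Cacna1a, a calcium channel subunit, fell 3.21-fold in one probe set and stood at -0.38 in the other. Neat1, the long RNA of nuclear paraspeckles, stood at 8.36, 7.58 and 6.94, a 2.68-fold fall, but its other probe set differed by 0.00. Rin1, a Ras effector, fell 2.67-fold with -0.25 in its other probe set. Srgn (2.98-fold), which encodes the proteoglycan serglycin, Ccn5 (2.87-fold), Ecrg4 (2.64-fold) and the protease gene Adamts6 (2.61-fold) complete the larger members. Just inside the threshold were Dbp (a bound of -1.001, with -0.28 in its other probe set), Eps8 (-1.001), Pdk4 (-1.02) and Ctso (-1.02), and just outside it Samd5 (-0.998), F3 (-0.993), Scara5 (-0.992) and Pkp2 (-0.988).

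Other probe sets give the check that these data allow. Among the 44 genes that fell by 2 smaller steps and had another measured probe set, all other probe sets were lower in 42, and at least 1 of them passed 2-fold in 25. Among the 15 such rises, all others were higher in 14 and at least 1 passed 2-fold in 5. Membership of the class depends on the threshold, since the same value bounds the total from below and each step from above. With 0.8 in place of 1, 20 of the 32 rises and 47 of the 89 falls stayed in the class, and with 1.2, 13 and 41 did. A step of at least 0.9 in size was present in 5 rises and 19 falls, and a step under 0.25 in 3 rises and 8 falls.

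**Figure D3:**
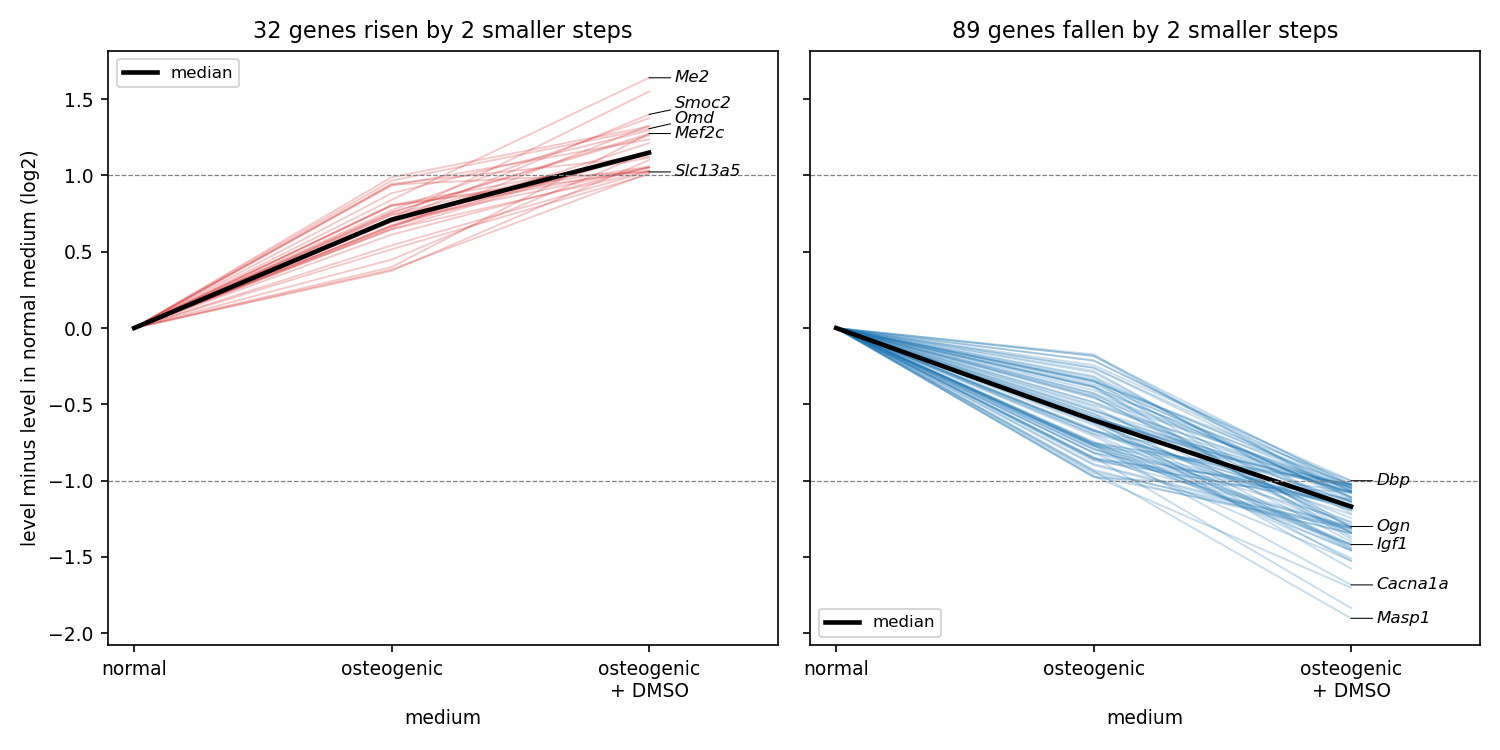
Level on each array minus the level in normal medium (log2, vertical axis) for the genes that passed 2-fold only by 2 smaller steps, 32 risen on the left and 89 fallen on the right. Each thin line is a gene on 1 array a condition, the black line is the median and dashed lines mark 1 and -1. The median reached 0.71 in osteogenic medium and 1.15 with DMSO for the rises, and -0.60 and -1.17 for the falls.

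Omd and its chromosomal neighbours moved in opposite directions. In the GRCm38.p6 gene table, the small leucine-rich proteoglycan genes Aspn, Omd and Ogn lie on chromosome 13. They follow each other when protein-coding genes are ordered by their start. Gene ends were not compared, so overlap with a longer gene was not checked. Aspn, which encodes asporin, a protein that can bind collagen and calcium, stood at 10.97, 10.35 and 9.68 and fell 2.45-fold, with -1.15 in its other probe set. Ogn, which encodes osteoglycin, stood at 11.76, 10.91 and 10.46 and fell 2.46-fold, with -1.56 in its other probe set. Omd, between them, rose 2.47-fold and had 1 probe set. All 3 moved by 2 smaller steps. Of the genes further out in this order, Ecm2 was below the floor on all arrays. Cenpp stood at 0.50, with 0.92 in its other measured probe set. Nol8 stood at 0.15, with 0.00 to 0.48 in its others.

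The promoters of these 3 genes and of Mmp13, the gene with the largest fall, are shown because neighbours of 1 family differed in direction and because Mmp13 moved 2-fold in each step. Each is the 250 bases before the RefSeq start on the plus strand of GRCm38.p6, written 5′ to 3′ in lower case, with matches to a RUNX core (TGTGGT), an AP-1 site (TGANTCA) or the composite element of ATF4 (TGATGNAA) on either strand in capitals. They lie at chr13:49544193-49544442 (Aspn), chr13:49582212-49582461 (Omd), chr13:49607765-49608014 (Ogn) and chr9:7272264-7272513 (Mmp13).
Aspn: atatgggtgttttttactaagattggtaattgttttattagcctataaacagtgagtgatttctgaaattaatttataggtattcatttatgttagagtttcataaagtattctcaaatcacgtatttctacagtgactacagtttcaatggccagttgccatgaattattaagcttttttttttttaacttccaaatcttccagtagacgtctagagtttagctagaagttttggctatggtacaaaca
Omd: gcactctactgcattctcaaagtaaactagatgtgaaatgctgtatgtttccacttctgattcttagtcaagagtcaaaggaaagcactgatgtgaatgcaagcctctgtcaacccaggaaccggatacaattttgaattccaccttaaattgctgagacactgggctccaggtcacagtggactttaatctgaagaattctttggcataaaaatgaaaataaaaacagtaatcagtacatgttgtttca
Ogn: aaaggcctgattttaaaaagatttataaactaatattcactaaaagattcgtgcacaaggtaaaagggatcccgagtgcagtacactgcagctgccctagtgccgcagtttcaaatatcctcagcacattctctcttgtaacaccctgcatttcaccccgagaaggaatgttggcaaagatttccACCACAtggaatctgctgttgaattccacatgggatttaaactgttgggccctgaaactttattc
Mmp13: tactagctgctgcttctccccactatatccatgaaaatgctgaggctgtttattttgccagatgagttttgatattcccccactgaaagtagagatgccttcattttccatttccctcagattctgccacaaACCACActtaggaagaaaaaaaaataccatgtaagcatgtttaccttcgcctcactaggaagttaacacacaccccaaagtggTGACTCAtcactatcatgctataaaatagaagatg

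None of the motifs was found in these windows of Aspn and Omd. Ogn held a RUNX core on the minus strand that begins 65 bases before the start. Mmp13 held a RUNX core on the minus strand 118 bases before the start and an AP-1 site 35 bases before it. A match of letters is a description and not a site of binding. Over all 32851 promoter windows, 14.1% held the RUNX core, 6.75% the AP-1 site and 3.45% the ATF4 element. Over the 11834 windows of genes above the floor, from which all changed genes come, the shares were 10.4%, 4.25% and 1.82%. Among genes that passed 2-fold by 2 smaller steps, the RUNX core was in 1 of 27 windows of the rises and 10 of 72 of the falls, the AP-1 site in 3 and 5, and the ATF4 element in 0 and 2. These windows cover 21 of the 32 rises and 60 of the 89 falls.

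**Figure D4:**
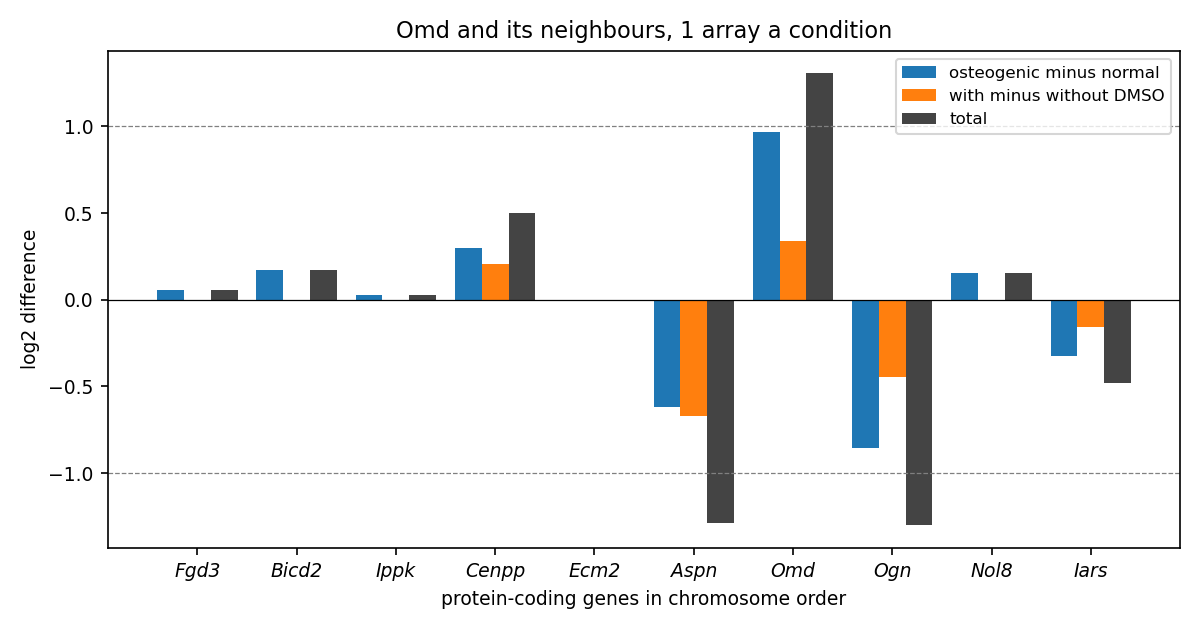
Log2 differences for Omd and the protein-coding genes on either side of it with a probe set, in chromosome order, 1 array a condition. Blue bars are the first step, orange bars the second step and dark bars the total, with dashed lines at 1 and -1. Aspn (-1.29) and Ogn (-1.30) fell on both sides of Omd (1.31), and Ecm2 was under the floor.

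Among the 218 changed genes found in the gene table, 8 pairs of direct protein-coding neighbours, in order of gene start, both passed 2-fold. Of these pairs, 4 moved in the same direction and 4 in opposite directions. The pairs overlap, as Omd was paired with both Aspn and Ogn, and P3h2 with both Trp63 and Cldn1. The share over all adjacent pairs was not computed, so nothing is read from the count. Dmp1 and Ibsp, which encode acidic matrix proteins of bone, are neighbours on chromosome 5. Dmp1 stood at 6.65, 7.83 and 5.01 and fell 3.12-fold in total after a 2-fold first rise, while Ibsp rose 5.89-fold. The other 2 probe sets of Dmp1 ranged from -1.67 to -0.59. Smoc2 rose beside Dact2, an inhibitor of TGF-beta and Wnt signals that fell by 1.35 on the log2 scale. The other probe sets of Dact2 ranged from -0.52 to 0.45, so its direction rests on the probe set. Trp63, P3h2 and Cldn1, neighbours on chromosome 16, all fell: Trp63, a transcription factor, fell by 1.24 (other probe sets -1.12 to -0.35) and P3h2 fell by 1.82 on the log2 scale, and Cldn1 was at least 5.65-fold lower. These pairs were picked out after their values were seen.

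The gene lists below describe where the total change lay by function, read against the 0.602% of genes that rose and 1.33% that fell. For osteoblast matrix and mineralization, 17 of 22 listed genes had a probe set of a single gene symbol. Of these, Mepe was below the floor on every array. Of the 16 measured genes, 7 rose and 2 fell, with a median of 0.25 against 0.00 over all genes. Besides Ifitm5, Smpd3, Ibsp, Alpl and Omd, the rises were Pth1r, the receptor of parathyroid hormone (2.94-fold), and Phex, a peptidase of osteocytes (at least 2.12-fold). Mmp13 and Dmp1 were the falls. The abundant collagen gene Col1a1 stood at 12.28, 12.32 and 12.50, a difference of 0.22. Of 15 osteoblast transcription factors, 4 rose (Dlx3, Sp7, Tle4 and Mef2c) and Id4 fell, with a median of 0.06. Dlx3, a homeobox factor, stood at 4.01, 5.41 and 5.83, and its other probe set at 0.17.

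In BMP and TGF-beta signalling, 3 of 24 genes rose and 2 fell, with a median of 0.00. Bambi, a decoy receptor, rose 3.19-fold over 4.87, 6.00 and 6.55, beside the bounds of Bmper and Inhbb. Id4 fell, and so did Sostdc1, which encodes a blocker of BMP and Wnt ligands and stood at 5.54, 6.74 and 3.85, with -0.74 in its other probe set. Id3, a target of BMP signals, was at 0.94. In Wnt signalling, 3 of 25 genes rose (Apcdd1, Notum and Lrp4) and 4 fell, with a median of 0.08. The falls were Ccn5, Dkk3 and the R-spondin genes Rspo2 and Rspo3, of which the R-spondins amplify Wnt signals. Rspo3 fell by 1.04 and Dkk3 by 1.05 on the log2 scale, both by 2 smaller steps, and Rspo2 by 1.49 with -0.04 in its other probe set.

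The IGF, FGF and PDGF list had a median of -0.29, with 5 of 23 genes fallen and Pdgfa risen 3.47-fold over 8.10, 9.42 and 9.90. Of the 5 falls, 4 came by 2 smaller steps, and the other was Fgf18, which stood at 6.14, 4.81 and 4.81. Of 41 genes for matrix proteins, proteoglycans and crosslinking enzymes, 8 fell, 1 rose and 30 were below 0, with a median of -0.23. The rise was Col11a2 (1.15), a cartilage collagen. The falls were F13a1, Vit, Cnmd, Tgm2, Fbln2, Ogn, Aspn and Col5a3 (-1.11). Among 20 matrix proteases and inhibitors (median -0.17), Mmp13 and the inhibitor Timp3 (-1.57) fell and the protease Prss35 rose from 3.55, barely above the floor, to 5.36. P3h2, a collagen prolyl hydroxylase, was the fall among 27 genes of collagen processing and ER chaperones, whose median was -0.01.

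Cell cycle genes were higher nearly throughout and under 2-fold. Of 33 measured mitosis genes, 33 were above 0, with a median of 0.60, and Bub1, a spindle checkpoint kinase, was the rise. It stood at 7.22, 7.87 and 8.25, though its other probe set gave 0.20. Cdk1, the mitotic kinase, stood at 0.83. Of 33 DNA replication genes, 32 were above 0, with a median of 0.53 and none past 2-fold. Ccne2, a cyclin of S phase entry, was at 0.98 and Rrm2, which makes deoxynucleotides, at 0.84. No p53 target of the 17 measured passed 2-fold. Their median total was 0.23, made of medians of 0.46 in the first step and -0.15 in the second.

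The ATF4 and amino acid response had the lowest median, -0.74, with 27 of 29 genes below 0 and 5 fallen. Trib3, a pseudokinase induced by amino acid stress, stood at 7.90, 6.48 and 6.32 and fell 2.99-fold, with -1.97 in its other probe set. Atf5 stood at 10.39, 8.98 and 8.81 and fell 2.97-fold. Ddit3, the stress factor CHOP, fell 2.65-fold, with -0.55 in its other probe set, and Aldh1l2, a folate enzyme of mitochondria, 2.41-fold. Cth was the member with 2 smaller steps. Its second step of -0.73 stood apart from the list's median second step of -0.05, while Slc7a5, an amino acid transporter, was at -0.99 in total.

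The interferon and antigen presentation list came next, with a median of -0.51 and 15 of 17 measured genes below 0. Stat2, Irf7, Ifit1, Oasl2, Gbp3, Rsad2 and Usp18 of this list were below the floor on every array. Gbp2, a guanylate-binding protein, fell 2.24-fold by 2 smaller steps over 6.45, 5.65 and 5.28, with -1.34 in its other probe set. Psmb8, an immunoproteasome subunit, was at -0.84 and the histocompatibility gene H2-D1 at -0.73. Of 25 YAP, SRF and contractile genes (median -0.25), 20 were below 0. Ankrd1, a target of YAP, fell 3.31-fold over 8.44, 7.88 and 6.71, and Tnnc1, a troponin, 3.34-fold over 7.59, 7.62 and 5.85. The smooth muscle kinase Mylk was at -0.92. Among 14 chemokine and inflammation genes (median -0.10), the chemokine Ccl2 fell 2.42-fold and the adhesion molecule Vcam1 2.10-fold, both by 2 smaller steps. The other probe sets of Vcam1 ranged from -0.85 to -0.58.

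The remaining lists differed in how many genes passed 2-fold, read against 1.94% of all genes above the floor. Tnfrsf11b rose and Ccl2 fell among 10 osteoclast regulators (median -0.10), where the vitamin D receptor Vdr was at -0.97. Tnfsf11, Il6 and Wnt16 of that list were below the floor on every array. Car3, Panx3 and Slc8a3 rose among 11 genes of channels and ion handling (0.12). Ramp1, Lepr and Pth1r rose and Ntrk3 fell among 17 receptors for hormones and neurotrophins (-0.05). Cldn1 was the fall among 33 adhesion and guidance receptors (-0.14), and Sod3, an extracellular superoxide dismutase, the fall among 20 NRF2 and glutathione genes (-0.16), again by 2 smaller steps. No gene passed 2-fold among 29 of cholesterol and fatty acid synthesis (0.15), 30 of oxidative phosphorylation (0.09), 19 of glycolysis and hypoxia (0.02) and 12 housekeeping genes (0.03). The retinoic acid list had a median of -0.04. The lists share some members.

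**Figure D5:**
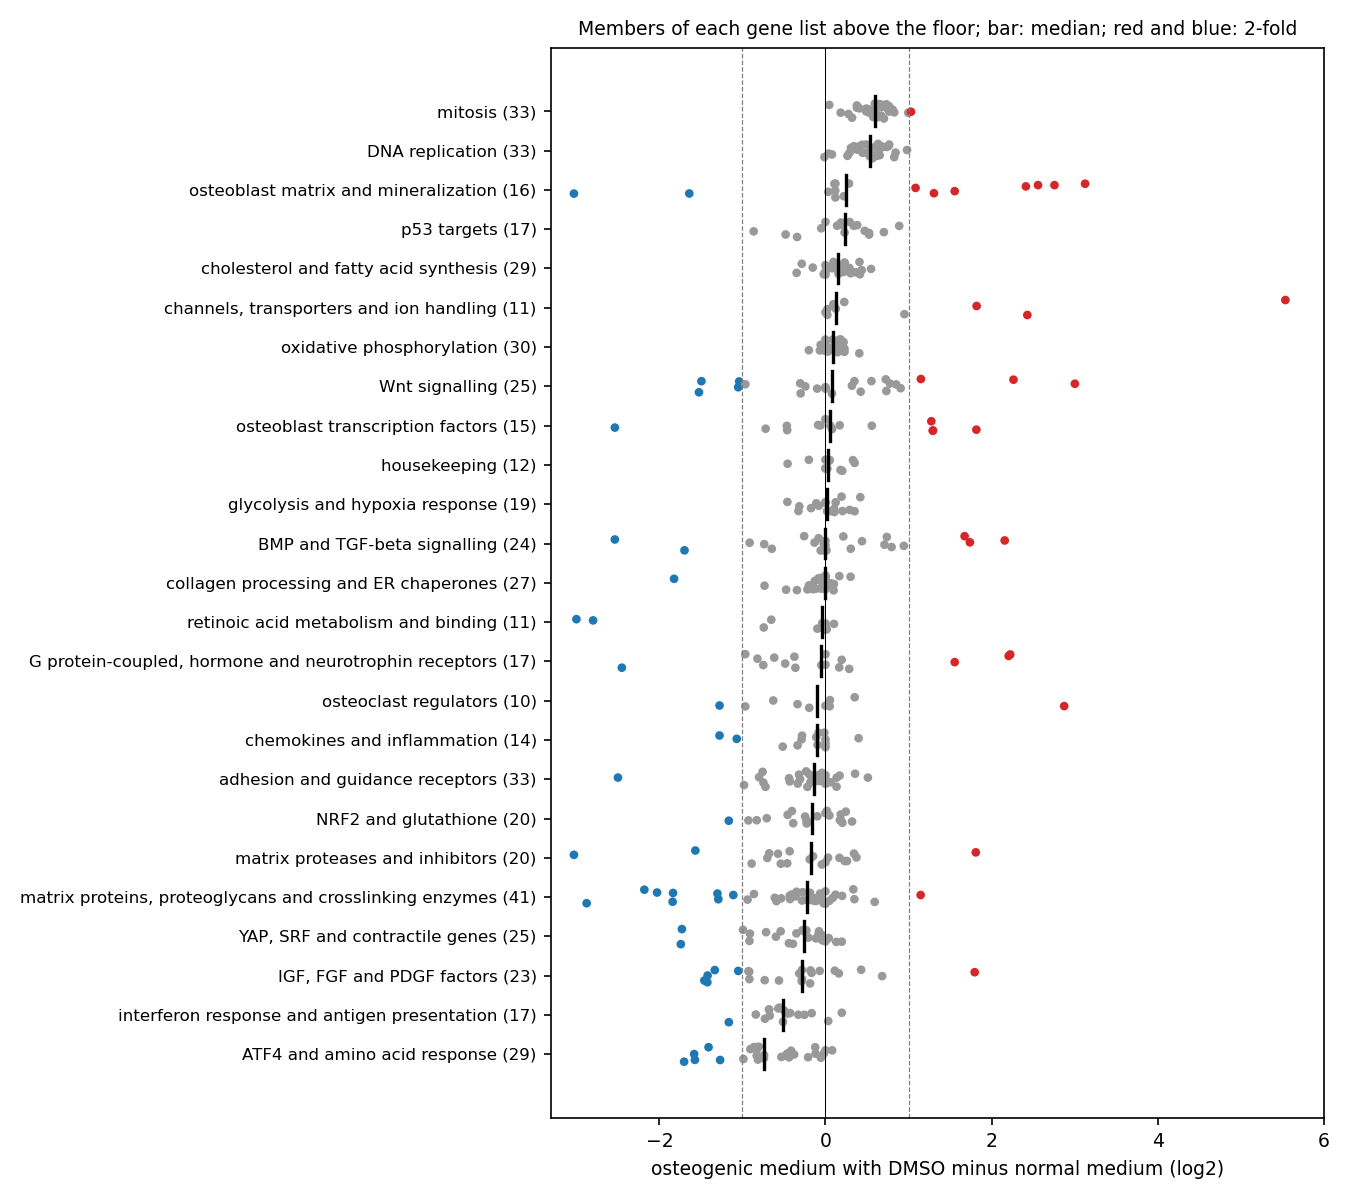
Total log2 difference of each list member above the floor, osteogenic medium with DMSO minus normal medium, 1 point a gene and 1 row a list, with the number of members in brackets. Black bars are medians, dashed lines mark 1 and -1, and red and blue points passed 2-fold upwards and downwards. Medians ran from -0.74 for the ATF4 list to 0.60 for the mitosis list.

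Of the markers of other cell types, Cnmd was the one that passed 2-fold. The summed signal (linear scale) of the 8 chondrocyte markers was 784.7 in normal medium, 928.8 in osteogenic medium and 589.4 with DMSO. Within it Cnmd fell by 2.03 and Col2a1 was at 0.91. The 6 smooth muscle markers summed to 9432, 9393 and 8313, with Myh11 below the floor. The 2 measured macrophage and osteoclast markers were Csf1r (-0.25) and Ctsk (-0.05). Their part in the results was not tested.

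A total under 2-fold also hid steps that opposed each other. In 35 genes a 2-fold step was followed or preceded by a step the other way that brought the total under 2-fold, as arithmetic requires. Of these, 18 had risen 2-fold in the first step and 15 fell 2-fold in the second, with 2 in both groups, and 4 had fallen 2-fold in the first step. Lrrc15, a membrane protein of mesenchymal cells, stood at 4.57 in normal medium, 5.96 in osteogenic medium and 5.01 with DMSO. Anxa8, an annexin, stood at 5.82, 7.44 and 6.70, and Cthrc1, a secreted protein of matrix repair, at 7.95, 9.22 and 8.74. The tenascin gene Tnn stood at 4.87, 6.08 and 5.21. Srpx2 stood at 5.79, 7.13 and 6.70, and Tmem178 at 5.36, 6.50 and 5.85. Dnase2a, a nuclease of lysosomes, fell in the first step, from 6.33 to 5.02, and stood at 5.51 with DMSO. In the other direction, Igf2 stood at 8.51, 9.04 and 7.59, so that its total of -0.92 is smaller than its second step of -1.45. Kank4 stood at 6.81, 7.19 and 5.94, Cela1, an elastase, at 4.82, 5.80 and 4.41, and Cdh1, the epithelial cadherin, at 3.87, 4.87 and 3.55. Megf10 stood at 4.19 and 4.87 and was under the floor with DMSO. The cytokine gene Il33 was under the floor in normal medium, at 4.62 in osteogenic medium and under the floor again with DMSO. Angpt4, an angiopoietin, stood at 4.48, 5.57 and 4.41. Both steps share the osteogenic array with opposite signs, so noise on that array can by itself make such opposed steps. All genes named here except Cthrc1, Igf2 and Il33 had a level exactly equal to that of 20 or more other probe sets on at least 1 array.

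The deposited levels are coarse, at the low end and in part above it. Of the 69 rises, 24 had a level on a compared array that was exactly equal to that of 20 or more other probe sets of that array, and so had 46 of the 153 falls. Without such genes 45 rises and 107 falls were left, and 14 rises and 36 falls by 2 smaller steps when all 3 arrays were asked for. Among others, Masp1, Sp7, Srgn, Cth, Ccn5, Mustn1 and Mef2c had such a level on a compared array. The same held for Rnf43, Rin1, Kbtbd11, Lrp4 and Sh3rf1. Thy1 had one on the osteogenic array, while Me2, Rras2, Omd, Fbln2, Igf1, Fgf7, Cav1 and Ogn had none. Such levels were also found above the upper quartile of the array with DMSO (6.235), as for Ddit3 at 7.40 and Trp63 at 7.02.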

How the data were processed

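The deposited values are log2 levels of 45101 probe sets of an Affymetrix mouse array, 1 column a condition. The base was read from the range of 0.652 to 13.4. How the authors summarised and normalised the probes is not given in the sources used here. Array medians were 3.54, 3.57 and 3.54. Per the labels' protocols, RNA with an integrity number over 9.5 was copied with a 3' IVT kit. Of 45037 probe sets without controls, 34945 had 1 gene symbol in the platform annotation, 932 several and 9160 none here.

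For a gene with several probe sets, that of highest mean over all 3 arrays was kept, and levels under the 50th percentile were raised to it. No test was possible with 1 array a condition. Named genes were drawn from the 14 largest rises and falls, the 5 largest bounds, the 20 largest totals with 2 smaller steps and the 6 largest opposed steps in each direction, all genes with 2-fold steps in the same direction, a fixed set of osteoblast genes and up to 6 members of each list. The fixed set also held Spp1 and Bglap, whose values are not given here. Names made of a clone number were counted and not printed. Probe sets without a single symbol enter only the count that closes the text. The members and lists were chosen with earlier results of these data known. Promoters and gene order come from RefSeq tables of GRCm38.p6. Alternatives covered the floor, scaling, probe set, threshold and smallest step. Tools were Python 3.11.15, numpy 2.4.6, pandas 2.3.3, matplotlib 3.10.9, R 4.3.3 and limma 3.58.1. The counting was run on simulated data, with changes planted in genes well above the floor. Of 50 genes given 2 steps of 0.7, 47 were counted as having 2 smaller steps, and 48 of 50 given 2 steps of -0.7. The simulated levels were not coarse like the deposited ones, so the run checks the code and not the precision of the calls.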

Additional observations from a re-analysis of the deposited data

How the results depend on the processing

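The counts of 69 rises and 153 falls ranged from 52 to 73 and from 120 to 166 under the floors, scalings and median over probe sets tried. With the probe set of second highest mean, which exists for 9010 genes, there were 21 rises and 63 falls, of which 10 and 42 came by 2 smaller steps. A threshold of 0.8 gave 138 rises and 271 falls, with 75 rises by 2 smaller steps, and one of 1.2 gave 44 and 96, with 20 and 55 by 2 smaller steps. Without genes of widely shared levels, an alternative chosen after seeing the data, 45 rises were left, and 14 rises and 36 falls by 2 smaller steps. Of 104 named genes past 2-fold, 63 stayed so under every floor, scaling and probe set that gave a value. Slc16a4 reversed to -0.20 with its second probe set. List medians moved by more than the spread between probe sets in 8 of 254 cases. No paired analysis was possible because each condition had 1 array.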

Other observations

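A few further genes passed 2-fold, and they are given here as values chosen after they were seen. Ptch1, the receptor and target gene of hedgehog signals, stood at 7.53 in normal medium, 8.77 in osteogenic medium and 9.08 with DMSO, while its other measured probe set differed by 0.00. Gli1, a transcription factor and target of the same pathway, went from under the floor to 4.70 and 4.66. Gas1, a hedgehog co-receptor, stood at 10.95, 10.53 and 10.11, a difference of -0.85, and its other probe sets ranged from -1.04 to 0.00. Gli3 (0.00), Smo (0.17) and Sufu (0.00) differed little, and Hhip, Ihh and Dhh were under the floor on all arrays.

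Pappa and Pappa2, proteases that cleave IGF binding proteins, both fell by 2 smaller steps. Pappa stood at 6.00, 5.65 and 4.66 and Pappa2 at 10.12, 9.86 and 9.09. Around Cav1 and Cavin2, the caveola genes Cav2 (-0.74), Ehd2 (-0.33) and Cavin1 (-0.17) were under 2-fold. Their other measured probe sets gave 0.00 for Cav2 and Cavin1 and ranged from -0.08 to 0.53 for Ehd2. Cavin3 (-0.08), Pacsin3 (0.00) and Cavin4 (0.19) differed little. Of the sphingomyelin genes beside Smpd3 and Sgms2, Sgms1 (0.02), Smpd1 (0.00) and Smpd4 (0.00) differed little. Sphk1, a sphingosine kinase, was at -0.85, with -0.27 in its other probe set.

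Among 10092 probe sets without a single gene symbol, 8 rose and 22 fell 2-fold, 1.21% of the 2471 above the floor, and 3 of these rises and 10 of the falls came by 2 smaller steps.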
